A study of Mus musculus with 18 samples.

Results

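The alpha-globin cluster of the mouse and the genes that flank it on its upstream side were followed in nascent RNA through the erythroid lineage of the fetal liver. The 8 genes were taken by symbol from a deposited table of 54232 gene identifiers. They were the embryonic alpha-like gene Hba-x, the adult alpha-globin genes Hba-a1 and Hba-a2, and the flanking genes Nprl3, Mpg, Rhbdf1, Snrnp25 and Il9r, which neighbour the alpha-globin enhancers. All 8 passed the filter on low counts in both model fits.

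Livers came from C57BL/6 mouse embryos at e12.5-e13.5. Cells positive for other lineage markers (Lin) were separated by sorting, and Lin-negative cells were divided by CD71, the transferrin receptor, and Ter119, a surface marker of maturing red cells. The 5 erythroid populations were S0-Low (CD71- Ter119-), S0-Medium (CD71 medium, Ter119-), S1 (CD71 high, Ter119-), S2 (CD71 high, Ter119 medium) and S3 (CD71 high, Ter119 high). The study describes S0-Low as stem, progenitor and burst-forming cells, S0-Medium and S1 as early and late colony-forming cells, and S2 and S3 as terminally differentiating cells. The sixth group was Lin+, and there were 3 replicates of each group, 18 libraries in all. All cells, Lin+ included, had been rested in culture for 6 h and then given 500 µM 4-thiouridine (4sU) for 45 min, after which the labelled RNA was purified and sequenced, so a level is a relative share of the purified RNA, which is enriched for RNA made in that window, and not the amount the cell holds. What a replicate number stands for is not given, so p-values measure the spread between these samples only.

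Haemoglobin is built from paired alpha-like and beta-like chains. In the mouse the alpha-like genes lie in their order of use in development, with the embryonic gene nearest to a group of strong erythroid enhancers, and most of these enhancers sit inside introns of Nprl3, a gene that is active in most tissues. Beyond Nprl3 follow further genes that are unrelated to haemoglobin. In erythroid cells the enhancers contact the globin promoters, and the flanking genes lie in or beside the same chromatin domain.

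On chromosome 11 of GRCm38, the build in the submitters' processing notes, RefSeq places the members in the order Il9r (32187544 to 32205283, minus strand), Snrnp25 (32205415 to 32208996, plus strand), Rhbdf1 (32209585 to 32222331), Mpg (32226505 to 32232702, plus strand), Nprl3 (32231963 to 32267707, minus strand), Hba-x (32276600 to 32278116, plus strand), Hba-a1 (32283672 to 32284486, plus strand) and Hba-a2 (32296492 to 32297310, plus strand). The ends of Mpg and Nprl3 overlap on opposite strands. The library kit keeps strand, but the strand setting of the counting is not given in the sources used here, so reads from that overlap cannot be assigned with certainty.

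The 3 promoters below are shown because their genes stood apart in the results: an embryonic gene near 0 at the start, an adult gene with a very large rise and a flanking gene with a moderate one. Each is the 250 bases before the RefSeq start in the GRCm38.p6 table, which holds 7 of the 8 members, and capitals mark GATAA (the core bound by GATA factors), CACCC (bound by KLF factors), CCAAT and TATAA on either strand.
Hba-x, chr11:32276350-32276599, plus strand: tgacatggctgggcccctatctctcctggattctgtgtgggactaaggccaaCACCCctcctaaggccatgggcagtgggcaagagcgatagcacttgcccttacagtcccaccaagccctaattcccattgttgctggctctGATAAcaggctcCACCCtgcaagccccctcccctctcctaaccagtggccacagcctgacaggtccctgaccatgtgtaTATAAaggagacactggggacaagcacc
Hba-a1, chr11:32283422-32283671, plus strand: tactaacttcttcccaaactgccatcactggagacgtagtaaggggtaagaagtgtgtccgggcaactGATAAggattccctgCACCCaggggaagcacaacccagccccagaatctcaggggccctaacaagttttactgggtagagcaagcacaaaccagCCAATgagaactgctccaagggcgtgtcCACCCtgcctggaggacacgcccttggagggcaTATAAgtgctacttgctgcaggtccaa
Nprl3, chr11:32267708-32267957, minus strand: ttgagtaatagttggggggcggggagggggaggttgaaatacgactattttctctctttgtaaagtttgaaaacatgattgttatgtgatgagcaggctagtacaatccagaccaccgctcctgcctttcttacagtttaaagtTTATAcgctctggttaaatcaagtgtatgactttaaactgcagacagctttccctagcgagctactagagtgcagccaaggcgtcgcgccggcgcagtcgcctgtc

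Counting from the start, Hba-a1 held GATAA at -182, CACCC at -167 and -60, CCAAT at -88 and TATAA at -27. The Hba-a2 window shared an unbroken run of 247 bases with it and held the same motifs. Hba-x held GATAA at -107, CACCC at -198 and -95 and TATAA at -28, with no CCAAT in the window. Of the flanking genes, Nprl3 had a TATAA on the opposite strand at -106, Mpg had CACCC at -58 and 2 matches to CCAAT, Snrnp25 had 3 matches to CCAAT, and Il9r had 3 matches to GATAA and 1 to CACCC. The Il9r window, chr11:32200280-32200529, lies inside the gene span given above and not before its end. These letters are common: of 32851 promoter windows of this length, 22.6% held GATAA, 52% CACCC, 33.8% CCAAT and 22.8% TATAA, and 0.968% held all 4. A match is a description of the sequence and not a measured binding site.

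The coding sequences of Hba-a1 and Hba-a2 in the GENCODE vM1 transcripts differ at 1 of 429 positions, the substitution C381T, counted from the first coding base and written from Hba-a1 to Hba-a2. The 29 bases around it are shown with that base in capitals, because it is the place in the coding part where a read can tell both genes apart.
Hba-a1: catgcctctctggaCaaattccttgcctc
Hba-a2: catgcctctctggaTaaattccttgcctc
Of all 31-base stretches in their transcripts, 72.5% for Hba-a1 and 91% for Hba-a2 occur in the other gene, so the counting has to divide most of their reads by estimate, and the level of each is uncertain apart from their sum. Hba-x shared 0 stretches with any other coding transcript. It matched the Hba-a1 coding sequence at 62% of positions.

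Total counts ran from 9452476 (S0-Low replicate 3) to 40567976, and 3 counts corresponded to 0.0622 to 0.249 CPM (counts scaled to a common library size by edgeR's TMM method, the unit of every level here). Replicate 3 stood apart most clearly in S1 and S2: the chi-square per degree of freedom between replicates 1 and 2 was 89.4 and 134, against 341 to 376 and 449 to 503 with replicate 3. In Lin+ (128 against 132 and 219) and S0-Medium (223 against 254 and 304) the gap was smaller. Results are also given without all libraries numbered 3, an alternative chosen after seeing the data. Summed markers followed the sort: 6 erythroid markers ran from 410.3 to 828 CPM in S0-Low and from 22356 to 38196 in S3, and 3 progenitor markers from 694 to 999.6 and from 0 to 9.87. The labels call the Lin+ cells primary erythroblasts too, but their erythroid markers were at 209.5 to 261 CPM and 6 myeloid markers at 2953 to 5437, against 428 to 801 in S0-Low and 0 to 1.13 in S3. Their progenitor markers, at 599.5 to 930 CPM, overlapped those of S0-Low. In Lin+ 4 megakaryocyte markers were at 257 to 707 CPM and 4 lymphoid markers at 236 to 491. In S0-Low these were at 32.5 to 142 and 96.0 to 172. The 4 hepatocyte markers were lower in Lin+ (0.808 to 3.37 CPM) than in S0-Low (5.78 to 9.05). The part of these other cells in the results was not tested. In sorted bulk samples, fewer cells making an RNA and less RNA made per cell cannot be told apart.

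Adult alpha-globin transcription was low but present in S0-Low, and the mean level was higher in each later population. Hba-a1 was at 4.52, 13.2 and 18.1 CPM in replicates 1, 2 and 3 of S0-Low. In S0-Medium it was at 17.1, 38.3 and 160.0, in S1 at 115, 123 and 394, in S2 at 486, 510.5 and 709, and in S3 at 2967, 3721 and 3840. The S3 libraries did not overlap those of any earlier population, whereas S0-Low and S0-Medium overlapped. Hba-a2 was at 0.439, 3.96 and 4.57 CPM in S0-Low. It was at 11.8, 10.2 and 29.7 in S0-Medium and 42.5, 48.8 and 122 in S1, then at 234, 232 and 327 in S2 and 1580.2, 2586 and 3209 in S3. For Hba-a2 no library overlapped those of the population before. In all 5 erythroid populations replicate 3 was the highest of the 3 libraries for both genes. Together the pair took between 0.000544% and 0.00289% of all counts in S0-Low and between 0.334% and 0.427% in S3.

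Hba-x, whose product is the embryonic zeta-type chain, was at 0 counts in all S0-Low libraries. It had 2, 2 and 29 counts in S0-Medium (0.0463, 0.0466 and 0.851 CPM) and 9, 9 and 110 in S1 (0.229, 0.235 and 3.67 CPM). It had 7, 29 and 51 counts in S2 (0.296, 0.772 and 2.34 CPM) and 594, 124 and 560 in S3 (45.0, 5.59 and 32.2 CPM). All S3 libraries lay above all earlier ones, and within S3 the second replicate was the lowest. Hba-x was also summed with the embryonic beta-like genes Hbb-y and Hbb-bh1. This sum ran from 0 to 0.0748 CPM in S0-Low and from 71.6 to 197 in S3. By gene the courses were not the same. From S1 to S2 the mean of Hba-x went from 1.38 to 1.14 CPM, a step whose sign changed when single libraries were left out. Over this step Hbb-bh1 went from 4.96 to 9.94 CPM and Hbb-y from 0.631 to 3.79. Within S3, Hbb-bh1 was at 28.5, 39.8 and 58.7 CPM, lowest in replicate 1. The part of primitive red cells in these values was not tested.

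**Figure D1:**
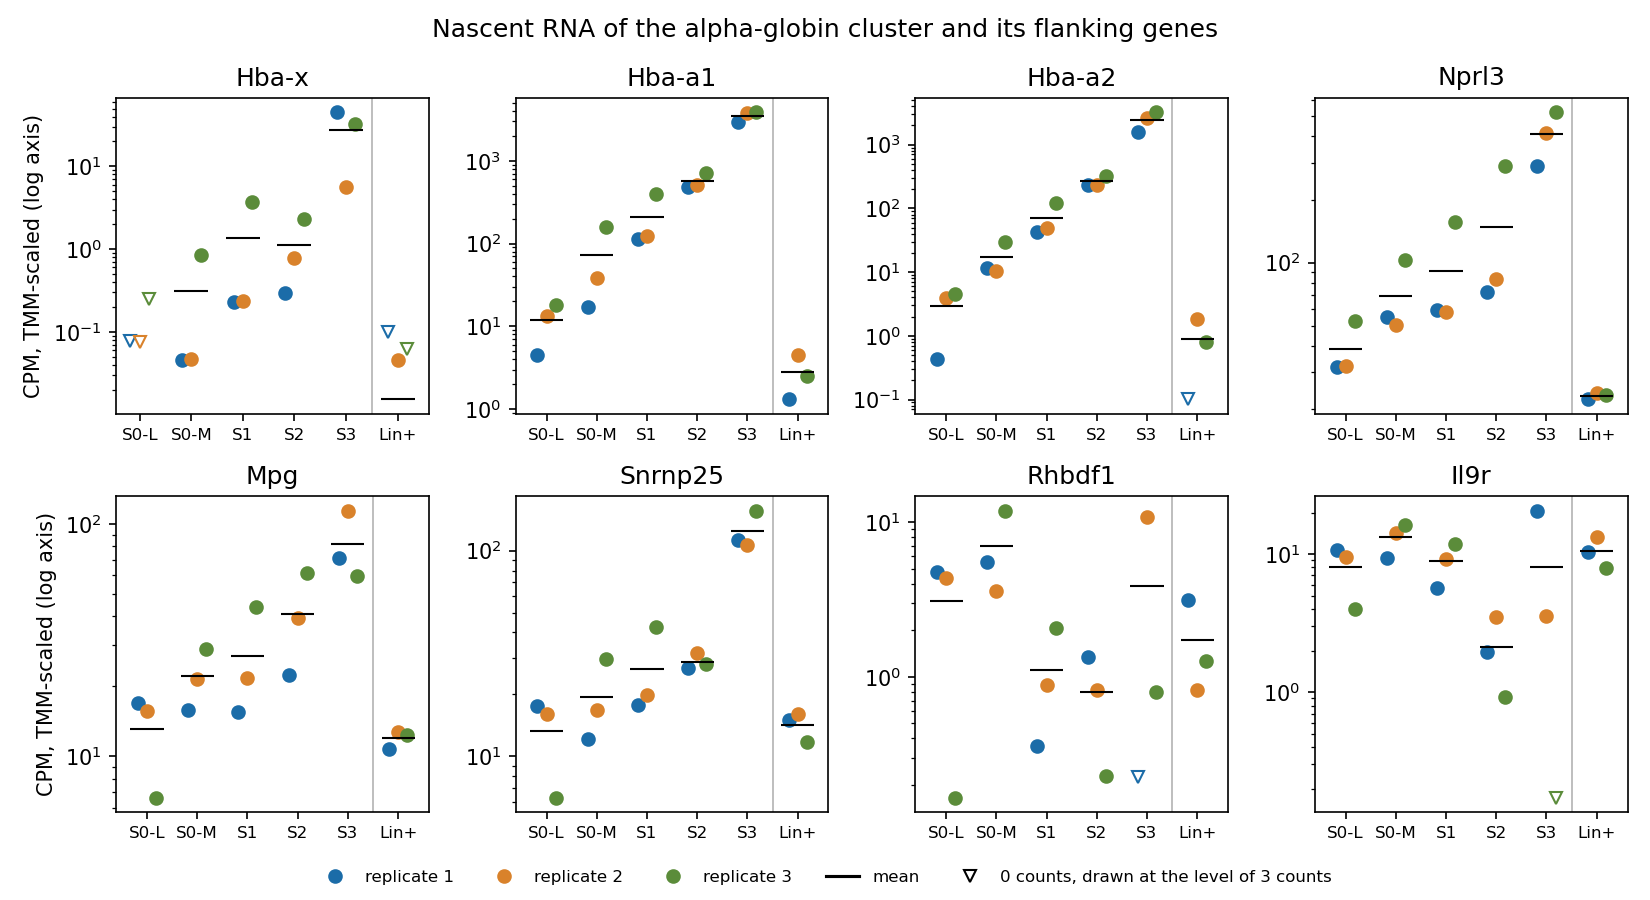
Nascent RNA of the 8 genes in each of the 18 libraries, as TMM-scaled CPM on a log axis with a scale of its own in each panel; points are libraries coloured by replicate, lines are means over 3 replicates, and open triangles are libraries at 0 counts drawn at the level of 3 counts. Hba-a1 climbs from 4.52 to 18.1 CPM in S0-Low to 2967 to 3840 in S3, while Rhbdf1 and Il9r each have an S3 library at 0 counts.

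Nprl3, a subunit of the GATOR1 complex that restrains mTORC1 when amino acids are scarce, was transcribed in every population. It was at 31.7, 32.1 and 52.4 CPM in S0-Low and at 55.3, 50.1 and 103 in S0-Medium, then at 59.5, 58.3 and 156 in S1 and 72.5, 83.2 and 289 in S2. In S3 it reached 290.2, 417 and 521 CPM. Replicate 3 was the highest in all 5 populations, and the S2 replicate 3 library lay just under the lowest S3 library.

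Mpg encodes an alkyladenine DNA glycosylase that starts base excision repair. It was at 17.0, 15.6 and 6.64 CPM in S0-Low, ran from 15.6 to 61.2 over S0-Medium, S1 and S2, and was at 71.1, 114 and 59.6 in S3. Its S3 libraries were all above those of S0-Low but overlapped those of S2. Snrnp25 encodes a protein of the U11/U12 particle of the minor spliceosome. It was at 17.6, 16.1 and 6.31 CPM in S0-Low, ran from 12.1 to 42.5 over the next 3 populations, and was at 113, 106 and 156 in S3, with every S3 library above every other library.

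The remaining flanking genes did not follow this course. Rhbdf1, a catalytically inactive rhomboid protein that controls traffic of ADAM17, was at 4.75, 4.36 and 0.166 CPM in S0-Low and 5.56, 3.61 and 11.9 in S0-Medium. It was at 0.356, 0.886 and 2.07 in S1, at 1.35, 0.825 and 0.229 in S2, and at 0, 10.9 and 0.804 in S3. Il9r, the receptor chain for interleukin 9, was at 10.7, 9.60 and 3.98 CPM in S0-Low and 9.31, 14.3 and 16.3 in S0-Medium. It was at 5.69, 9.15 and 11.7 in S1, at 1.95, 3.51 and 0.917 in S2, and at 20.7, 3.56 and 0 in S3. In S3 both genes varied widely between libraries, with 0, 241 and 14 counts for Rhbdf1 and 273, 79 and 0 for Il9r.

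Levels were compared between genes per kilobase of the longest GENCODE vM1 transcript. In S0-Low the order of mean levels was Hba-a1 (17.1 CPM per kb), Snrnp25 (16.2), Nprl3 (11.3), Mpg (6.10), Hba-a2 (5.40), Il9r (1.81), Rhbdf1 (1.05) and Hba-x (0), and each neighbour in this order overlapped the next except Rhbdf1 and Hba-x and Nprl3 and Mpg. In S3 the order was Hba-a1 (5020.3 CPM per kb), Hba-a2 (4437), Snrnp25 (152), Nprl3 (119.9), Mpg (38.1), Hba-x (34.4), Il9r (1.80) and Rhbdf1 (1.32). There the adult pair overlapped each other and no flanking gene, Snrnp25 overlapped Nprl3, Mpg overlapped Hba-x, and Il9r overlapped Rhbdf1.

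The comparison of S3 with S0-Low asks how the locus differs between the ends of the series. In edgeR's quasi-likelihood test on the 15 erythroid libraries, two-sided and with Benjamini-Hochberg adjustment over 16555 genes, 6 of the 8 genes were higher in S3 at an adjusted p under 0.05 and 0 were lower. Over all genes tested, 13.4% were higher and 22.4% lower (2220 and 3712 genes), and with library totals 1156 were higher and 6223 lower. The median log2 fold change was 3.32 over the 8 genes, also with Hba-x at its lower bound, and -0.54 over all genes. With library totals in place of TMM that median was -1.36. The count of 6 was the same under each other scaling and fit, without a filter, with DESeq2 and without any single library. It was 5 where every compared library had to hold at least 10 counts, a filter under which Hba-x, at 0 in S0-Low, was not tested.

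Hba-a2 had a log2 fold change of 9.71 ± 0.91 (SE, adjusted p = 4.72e-06) and Hba-a1 of 8.20 ± 0.92 (adjusted p = 1.83e-05). In means, Hba-a1 was 294-fold and Hba-a2 822-fold higher. Hba-x was at least 206-fold higher in S3, set against 3 counts in each S0-Low library (adjusted p = 0.00146). Nprl3 had a log2 fold change of 3.40 ± 0.58 (adjusted p = 0.000439), Snrnp25 of 3.23 ± 0.51 (adjusted p = 0.000242) and Mpg of 2.64 ± 0.55 (adjusted p = 0.00185), with means 10.6-fold, 9.40-fold and 6.24-fold higher. With library totals the log2 fold changes were smaller, at 7.31 for Hba-a1, 8.79 for Hba-a2, 2.51 for Nprl3, 2.40 for Snrnp25 and 1.84 for Mpg, and each still passed (highest adjusted p = 0.0157). All S3 libraries lay above all S0-Low libraries for each of these 6 genes. How many of all genes are separated in this way was not counted, here or below. Rhbdf1 had a log2 fold change of 0.33 with a 95% confidence interval from -2.87 to 3.52 (adjusted p = 0.883), and Il9r of -0.01 with an interval from -2.59 to 2.56 (adjusted p = 0.997). The Rhbdf1 interval is wide enough to hold a change as large as that of Mpg. For Rhbdf1 the value was -2.92 without S3 replicate 2, -0.28 without S0-Low replicate 3, -0.45 with library totals and -0.075 with the replicate block. For Il9r it was 0.16, 0.04, 0.34 and 0.56 without S0-Low replicate 1, S0-Low replicate 2, S3 replicate 2 and S3 replicate 3.

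**Figure D2:**
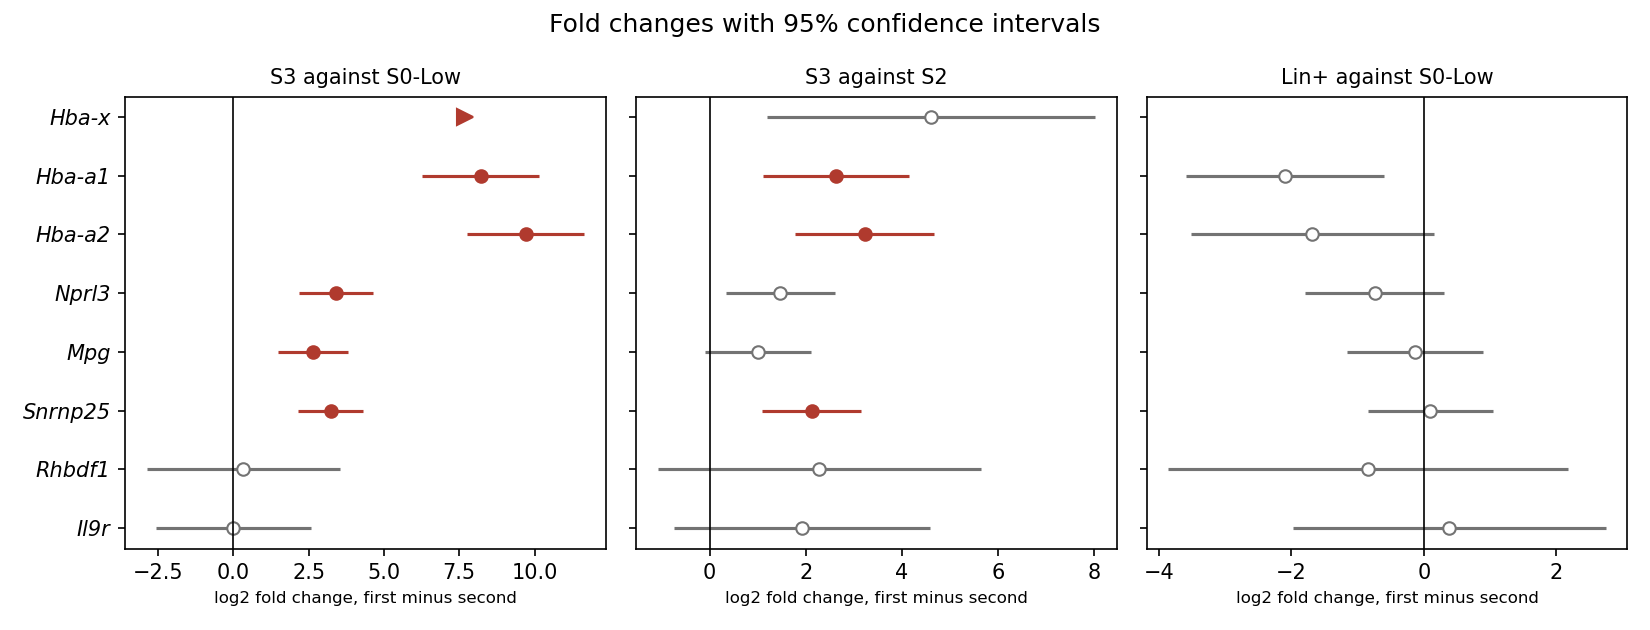
Log2 fold changes of the 8 genes in 3 comparisons, with 95% confidence intervals; filled red points have an adjusted p under 0.05, and the red triangle for Hba-x in S3 against S0-Low is a lower bound of 206-fold. No value is drawn for Hba-x in Lin+ against S0-Low, where both groups are at or under 3 counts, and the intervals of Rhbdf1 and Il9r cross 0 in each panel.

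A test of any difference among the 5 erythroid populations passed for 6 of the 8 genes, against 24.6% of all genes. Rhbdf1 (adjusted p = 0.476) and Il9r (adjusted p = 0.596) did not pass, and the highest adjusted p of the others was 0.00924, for Mpg.

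The step between neighbouring stages was also estimated for each gene. The log2 fold changes of Hba-a1 were 2.59 (S0-Medium against S0-Low), 1.55 (S1 against S0-Medium), 1.43 (S2 against S1) and 2.63 (S3 against S2), and those of Hba-a2 were 2.55, 2.04, 1.89 and 3.22. Whether one step exceeded another was not tested. Nprl3 had 0.84, 0.39, 0.70 and 1.47, Mpg 0.75, 0.29, 0.60 and 1.00, and Snrnp25 0.54, 0.45, 0.11 and 2.12. Rhbdf1 had 1.17, -2.67, -0.45 and 2.28, and Il9r 0.71, -0.59, -2.05 and 1.92. For Hba-x the S0-Medium mean was 2.35-fold the level of 3 counts in each S0-Low library. S0-Medium held 2, 2 and 29 counts, so this value rested on replicate 3 and is not a bound for each library. The later steps of Hba-x had log2 fold changes of 2.13, -0.28 and 4.61. Several small steps rested on single libraries. Without S1 replicate 3 the values for S1 against S0-Medium were -0.42 for Hba-x, -0.24 for Nprl3, -0.25 for Mpg and -0.048 for Snrnp25, and those for S2 against S1 were 2.27 for Hba-x and 0.37 for Rhbdf1. In S2 against S1, Nprl3 was at -0.23 without S2 replicate 3, Hba-x at 0.17 without S2 replicate 1, and Snrnp25 at -0.14 and -0.059 without S1 replicates 1 and 2.

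In S3 against S2, 3 of the 8 genes were higher and 0 lower, where 3.26% of all genes were higher and 6.09% lower (540 and 1008 genes, and 288 and 2265 with library totals). These were Hba-a2 (9.31-fold in means, adjusted p = 0.00904), Snrnp25 (4.33-fold, adjusted p = 0.0139) and Hba-a1 (6.18-fold, adjusted p = 0.0308). Hba-x had a log2 fold change of 4.61 ± 1.59 (SE, adjusted p = 0.085) and Nprl3 of 1.47 ± 0.54 (adjusted p = 0.0962). In the fit with a replicate block the count was 5, the 3 above with Hba-x (log2 fold change 4.96, adjusted p = 0.019) and Nprl3 (1.72, adjusted p = 0.000819), and DESeq2 also called 5. The calls over all genes rose too. With the block 1208 of 16555 genes were higher and 1866 lower, and with DESeq2 1307 of 28888 were higher and 2047 lower. Mpg was at a log2 fold change of 1.00 (adjusted p = 0.229). Without libraries numbered 3, 6 of the 8 genes were higher, Mpg among them (1.58, adjusted p = 0.0258). In that fit 1264 of all 17255 genes were higher and 1995 lower. The count was 1 without S2 replicate 1 or without S2 replicate 2, where Hba-a1 (log2 fold changes 2.52 and 2.55, adjusted p = 0.117 and 0.114) and Snrnp25 (2.06 and 2.18, adjusted p = 0.0658 and 0.0539) no longer passed, and 4 without S2 replicate 3, where Nprl3 was added (adjusted p = 0.00724). Hba-a1 was also lost without S3 replicate 3 (adjusted p = 0.0692) and with library totals (adjusted p = 0.0573). Rhbdf1 (2.28, adjusted p = 0.376) and Il9r (1.92, adjusted p = 0.344) had wide intervals, and without S3 replicate 2 Rhbdf1 was at -0.97 and without S3 replicate 1 Il9r at -0.26.

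At each of the 3 earlier steps edgeR called 0 of the 8 genes and 0% of all genes. At an unadjusted p under 0.05, 3 of the 8 genes differed between S0-Medium and S0-Low (Hba-a2, Hba-a1 and Hba-x), 2 between S1 and S0-Medium (Hba-a2 and Hba-a1) and 1 between S2 and S1 (Hba-a2). Of all 16555 genes, 539, 1135 and 667 were under that p at these steps. DESeq2 and the replicate block called 0 of the 8 at these steps. Without the filter on low counts edgeR called Hba-a1 (adjusted p = 2.48e-05) and Hba-a2 (4.97e-05) in S0-Medium against S0-Low, both (0.0195 and 0.000469) in S1 against S0-Medium, and Hba-a2 (0.0049) in S2 against S1. Falls had their largest sizes in Rhbdf1 at S1 against S0-Medium, at -2.67 (95% confidence interval from -6.07 to 0.73), and in Il9r at S2 against S1, at -2.05 (from -4.73 to 0.63). In both cases the libraries of each population did not overlap, but neither gene passed the test.

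Because a ratio within a library does not depend on how libraries are scaled, each flanking gene was also set against the adult pair in the same library. For every 100 adult alpha-globin counts, the median of Nprl3 went from 231 counts (S0-Low) through 103 (S0-Medium), 34.0 (S1) and 11.2 (S2) to 6.62 (S3). Mpg went from a median of 90.9 (range 29.3 to 342) in S0-Low to 1.56 (0.845 to 1.81) in S3, and Snrnp25 from 93.5 (27.8 to 354) to 2.22 (1.69 to 2.48). On the log2 scale, with 0.5 counts added to both terms, the ratio of Nprl3 to adult alpha-globin was 1.59 ± 0.95 (SD, n = 3) in S0-Low and -3.88 ± 0.11 in S3, a difference of -5.48. The differences were -6.18 for Mpg, -5.53 for Snrnp25, -10.10 for Rhbdf1 and -11.41 for Il9r, and the last 2 depend on libraries with 0 counts. With single libraries left out these ran from -7.04 to -5.27 for Mpg, from -6.43 to -4.60 for Snrnp25, from -12.02 to -8.18 for Rhbdf1 and from -13.60 to -8.54 for Il9r, and from -5.82 to -4.93 for Nprl3. With Hba-a1 alone as the adult gene the differences were -5.00 for Nprl3, -5.71 for Mpg and -5.06 for Snrnp25. With Hba-a2 alone they were -6.78, -7.49 and -6.84. With 0.1 or 5 counts added in place of 0.5, Rhbdf1 was at -10.80 or -9.35 and Il9r at -12.19 or -10.30. For each of the 5 flanking genes the S3 ratio was the lower in 3 of 3 same-numbered pairs and the libraries did not overlap. The exact permutation test (two-sided) gave p = 0.1 for each of the 7 measures compared in this way, which is the smallest p that 3 libraries against 3 allow, and p = 0.1 after Benjamini-Hochberg adjustment over them.

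**Figure D3:**
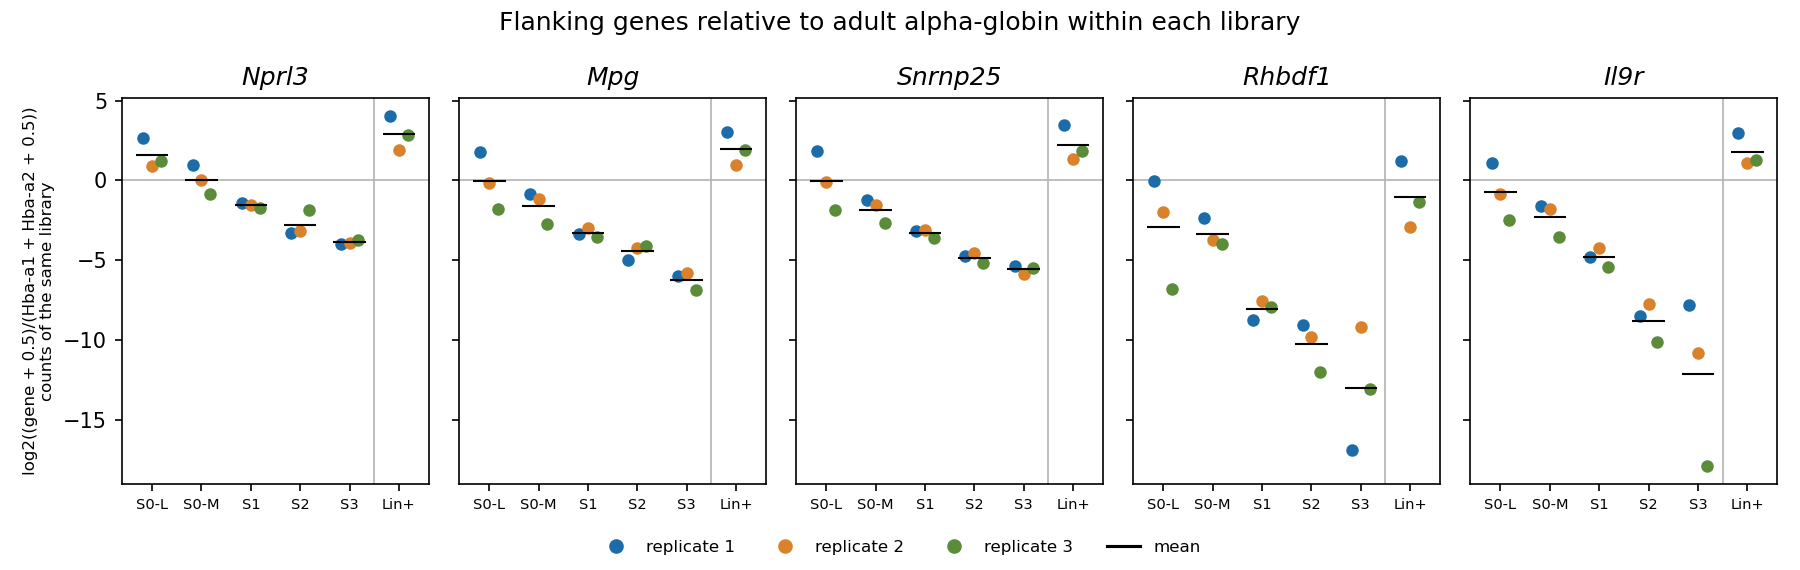
Log2 ratio of each flanking gene to the sum of Hba-a1 and Hba-a2 within a library, with 0.5 counts added to both terms; points are libraries, lines are means over 3 replicates, and the Lin+ libraries stand to the right of the grey line. The Nprl3 ratio goes from a mean of 1.59 in S0-Low to -3.88 in S3.

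The balance within the globin genes was compared in the same manner. Hba-x made up 0 of 192, 0 of 689 and 0 of 273 alpha-like counts (Hba-x, Hba-a1 and Hba-a2) in S0-Low, which allows shares of up to 1.56%, 0.435% and 1.10% (3 counts of each total). In S3 its share was 0.979% (95% Wilson interval from 0.904% to 1.06%), 0.0885% (from 0.0742% to 0.106%) and 0.454% (from 0.418% to 0.493%). These limits and intervals cover counting error only. In each same-numbered pair the S3 share lies below the S0-Low limit. With 0 counts throughout S0-Low any count in S3 gives a larger share, so the test says nothing here. The share was at 0.145%, 0.137% and 0.706% in S1 and 0.0411%, 0.104% and 0.225% in S2, and S2 and S3 overlapped.

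Alpha-like counts were compared with beta-like counts, those of Hbb-b1, Hbb-b2, Hbb-bh1, Hbb-bh2 and Hbb-y. The log2 ratio was -0.74 ± 0.21 (SD, n = 3) in S0-Low and -0.38 ± 0.10 in S3, and between them -0.31 ± 0.06 (S0-Medium), -0.59 ± 0.01 (S1) and -0.46 ± 0.27 (S2). Over the same range the mean of Hbb-b1, the main adult beta-globin gene, was 405-fold higher in S3. The S3 libraries were above the S0-Low libraries by 0.36, in 3 of 3 pairs, with an exact permutation p = 0.1. With Hba-a1 alone as the adult gene the difference was -0.11, and with Hba-a2 alone it was 1.68. The share of Hba-a1 in the adult pair, a measure chosen after seeing the data, was 91.1%, 76.9% and 79.9% in S0-Low and 65.2%, 59.0% and 54.5% in S3. It rests on how near-identical reads were divided.

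**Figure D4:**
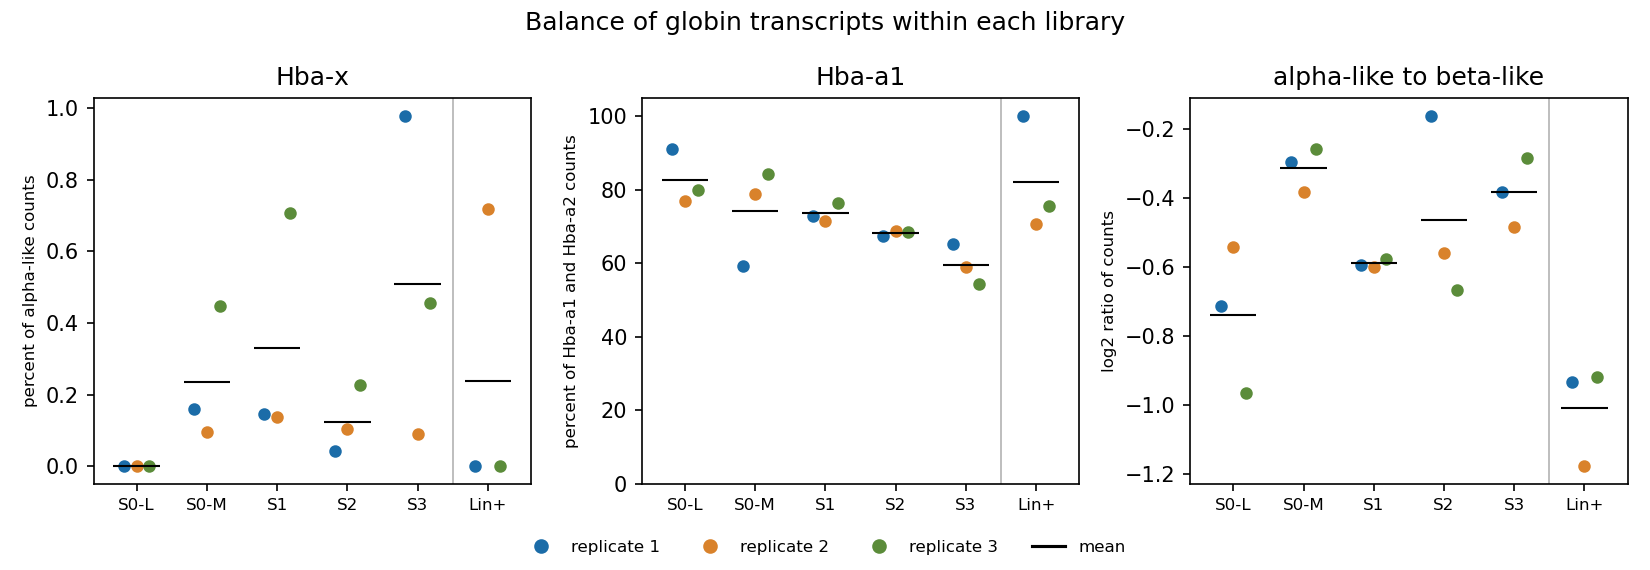
Share of Hba-x in the alpha-like counts, share of Hba-a1 in the adult pair, and log2 ratio of alpha-like to beta-like counts, per library; lines are means over 3 replicates. The Hba-a1 share lies between 54.5% and 65.2% in S3, and the alpha-like to beta-like ratio stays below 0 in each library.

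Lin+ cells were compared with both ends of the erythroid series on all 18 libraries (17755 genes). Hba-a1 was at 1.31, 4.50 and 2.49 CPM in Lin+, Hba-a2 at 0, 1.86 and 0.808, Nprl3 at 22.2, 23.8 and 23.4, Mpg at 10.8, 12.7 and 12.4, and Snrnp25 at 15.0, 16.1 and 11.8. Hba-x had 0, 2 and 0 counts, and Rhbdf1 was at 3.13, 0.827 and 1.26 CPM. Against S3, 6 of the 8 genes were lower in Lin+ and 0 higher, where 14.1% of all genes were lower and 28.2% higher (2496 and 5005 genes, and 1338 and 7124 with library totals). The means of Hba-a1 were 1268-fold and of Hba-a2 2763-fold lower in Lin+, Hba-x was at least 356-fold lower, and Nprl3, Snrnp25 and Mpg were 17.7-fold, 8.77-fold and 6.83-fold lower, with adjusted p between 8.65e-07 and 0.00104. For Hba-a2, which had 0 counts in Lin+ replicate 1, the log2 fold change was -11.40, and it was -12.45 without Lin+ replicate 2 and -10.53 with library totals. The count was 4 where every compared library had to hold at least 10 counts, since Hba-x and Hba-a2 were at 0 in Lin+ libraries and were not tested. Rhbdf1 was at -1.16 (adjusted p = 0.541) and, without S3 replicate 2, at 2.08. Il9r was at 0.39 (adjusted p = 0.805) and, without S3 replicate 3, at -0.18.

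Against S0-Low, edgeR called 0 of the 8 genes in Lin+, where 0.496% of all genes were higher and 0.22% lower. DESeq2 and the replicate block called 0 too, and 1 of the 8 was under an unadjusted p of 0.05, as were 1748 of all 17755 genes. That gene was Hba-a1, at a log2 fold change of -2.09 (adjusted p = 0.239), with all Lin+ libraries under all S0-Low libraries, and it passed without the filter on low counts (adjusted p = 0.00938). Nprl3 was also lower in all Lin+ libraries than in all S0-Low libraries (log2 fold change -0.74, adjusted p = 0.782). The intervals of Nprl3 (from -1.79 to 0.31), Mpg (from -1.16 to 0.89) and Snrnp25 (from -0.85 to 1.04) hold 0. They leave room for changes of the size of the erythroid steps before S3 in the same gene, for Nprl3 only as a fall. The Snrnp25 interval does not reach the size of its S3 against S2 step (2.12). Il9r, which in other settings is known from lymphoid and mast cells, was at 10.4, 13.4 and 7.88 CPM in Lin+ and overlapped S0-Low. The log2 fold changes of the others were -1.69 for Hba-a2 (adjusted p = 0.585), -0.84 for Rhbdf1 (0.986), 0.38 for Il9r (0.996), -0.13 for Mpg (0.997) and 0.10 for Snrnp25 (0.998), and Hba-x is given no fold, since both groups were at or under 3 counts. Mpg was at 0.098 and 0.010 without S0-Low replicates 1 and 2, and Snrnp25 at -0.24 without S0-Low replicate 3.

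The genes around the 8 give the setting. The theta-like gene Hbq1b lies between Hba-a1 and Hba-a2, and the theta-like gene Hbq1a lies beyond Hba-a2. Of their 31-base stretches, 44.9% for Hbq1a and 48.5% for Hbq1b occur in the other theta-like gene. Hbq1b had 1, 6 and 0 counts in S0-Low and 1673, 2879 and 3056 in S3 (adjusted p = 0.000242), and Hbq1a was at least 67.3-fold higher in means (adjusted p = 0.002). The S3 libraries of Hbq1a were at 5.45, 5.36 and 16.2 CPM, so replicate 3 raised this bound. Among 13 listed genes beyond the cluster and within 500 kb of it, or on the list fixed for it, 9 were tested in S3 against S0-Low, of which 2 were higher and 1 lower, beside 13.4% and 22.4% of all genes. On the Il9r side, Cpeb4, an RNA-binding regulator of translation, was 68.9-fold higher in S3 (adjusted p = 1.1e-06), and the transcript D630024D03Rik was at least 115-fold higher (adjusted p = 0.00098). On the adult-globin side, the nearest gene, Sh3pxd2b, a podosome scaffold protein, had 2425, 1755 and 439 counts in S0-Low and 0, 15 and 0 in S3 (log2 fold change -7.58, adjusted p = 0.000842). Stk10, a kinase gene of the same list, was at 0.98 (adjusted p = 0.0727). Along the chromosome, Il9r and Rhbdf1, inside the region, were called in neither direction, while Cpeb4 beyond them was higher.

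**Figure D5:**
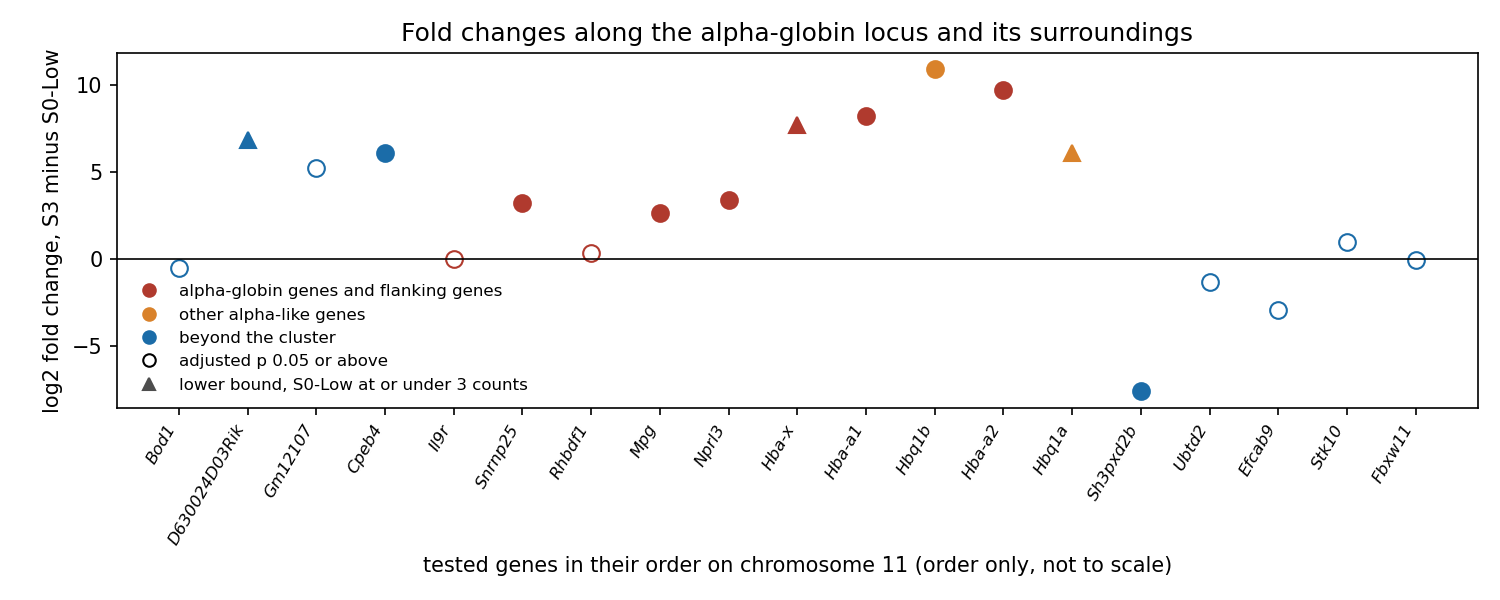
Log2 fold changes (S3 against S0-Low) of the tested genes in their order on chromosome 11, with the order only and no scale of distance; filled symbols have an adjusted p under 0.05 and triangles are lower bounds. Sh3pxd2b at -7.58 stands next to the alpha-like genes, and Cpeb4 at 6.11 lies beyond Il9r.

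The beta-globin cluster on chromosome 7 gave 5 of 5 tested members that were higher in S3 than in S0-Low. Of 14 tested factors on a list of those that act at the alpha-globin locus, 9 were higher and 1 lower, beside 13.4% and 22.4% of all genes, with a median log2 fold change of 1.47. Klf1, the factor that binds CACCC boxes of globin promoters, was at 2.93 (adjusted p = 0.000782), Tal1 at 2.72 (adjusted p = 6.12e-05) and Nfe2, which acts at the distal enhancers, at 2.83 (adjusted p = 0.00372). The lower one was Gata2, the progenitor GATA factor, at -6.59 (adjusted p = 0.00139).

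Molecular partners of the flanking genes were read from the same comparison. Nprl2, the direct partner of Nprl3 in GATOR1, was at a log2 fold change of 0.66 (adjusted p = 0.419). Of 15 base excision repair genes set beside Mpg, 3 were higher (Neil3, 3.33, Polb, 1.00, and Xrcc1, 1.05) and 4 lower (Nthl1, Apex1, Lig3 and Parp1), with a median of -0.97, beside 13.4% higher, 22.4% lower and a median of -0.54 over all genes. Of 8 minor spliceosome partners of Snrnp25, Rnpc3 was higher (1.44, adjusted p = 0.00448) and Pdcd7 lower (-1.61, adjusted p = 0.00989). Of the 3 partners of Rhbdf1, its paralogue Rhbdf2 was higher (1.88, adjusted p = 0.00582) and Frmd8 lower (-1.74, adjusted p = 0.0033). Of 6 tested signalling partners of Il9r, 0 were higher and 4 lower (Jak3, Stat3, Stat5a and Stat5b), with a median of -1.54.

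The genes whose levels were most like those of the members were ranked by Pearson correlation of log2 CPM over the 15 erythroid libraries, among 11336 genes. These libraries share their populations, so the values describe a common course only. For the summed adult pair they were Hbb-b1 (r = 0.997), Hbb-b2 (0.996), Epb4.2 (0.992), Prdx2 (0.989) and Alad (0.988). For Nprl3 they were St3gal5 (0.996), Gm15800 (0.992), Btrc (0.986), Atp6v0a1 (0.986) and Tfdp2 (0.985), while the adult pair was at 0.915. For Hba-x they were Letm2 (0.968), Mad2l1bp (0.964), Atp6ap2 (0.959), Gdf15 (0.955) and Arih2 (0.948). None of these 5 was among the first 5 by Spearman correlation, where Gdf15 had 0.788 and Arih2 0.806 and the embryonic beta-like gene Hbb-bh1 had 0.982. With the adult pair, Snrnp25 had r = 0.879, Mpg 0.865 and Hba-x 0.846, and Rhbdf1 and Il9r had -0.26 and -0.47.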

How the data were processed

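Nascent RNA (4sU-seq) was measured in 18 libraries with a stranded kit, PCR and no molecular identifiers. The authors quantified reads with kallisto 0.43.0 (GRCm38, both from the submitters' processing notes) and deposited one estimated count per gene and library as whole numbers, not normalized. The transcript set and the treatment of introns are not given in the sources used here. Samples were grouped by their labels. Counts were tested in R 4.3.3 with edgeR 4.0.16 (TMM, filterByExpr, glmQLFit and glmQLFTest, two-sided, Benjamini-Hochberg adjusted p under 0.05), and within-library ratios in Python 3.11.15 with scipy 1.17.1 by exact permutation tests. The fit was tested on simulated data. Symbols were found for 32651 of 54232 identifiers. Alternatives were DESeq2 1.42.0, RLE factors, library totals, no filter or at least 10 counts, globin genes left out of scaling, the libraries fitted, the replicate block, other pseudocounts and single libraries left out. All 8 genes are reported in every comparison, list genes that passed may be named with at most 4 that did not, and the 5 most alike genes are named. The members and lists were chosen with earlier results of these data known. Same-numbered libraries pair where each of 3 correlations of their deviations was over 0.1, which held for 5 of 7 comparisons (not S3 against S0-Low, lowest r 0.0806, nor Lin+ against S3, lowest r 0.0905). Total counts ran from 9452476 to 40567976. A gene among the partners of Nprl3, and the counts of that list, are not reported here.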

Additional observations from a re-analysis of the deposited data

How the results depend on the processing

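The common biological coefficient of variation was 0.795, so small changes of single genes are beyond this depth and number of libraries. The 6 calls in S3 against S0-Low and in Lin+ against S3 were the same in number under each alternative but the filter of at least 10 counts in every compared library, which left 5 and 4, since members at or near 0 were not tested. The members called in S3 against S2 (3) were 5 without a filter, 5 with the replicate block, 5 with DESeq2, 6 without libraries numbered 3 (chosen after seeing the data) and 1 to 4 with single libraries left out. Without a filter the earlier steps and Lin+ against S0-Low had 2, 2, 1 and 1 members. The cause of these differences was not tested.

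Genes called in S3 against S2 (1548) were 2553 with library totals, 2546 without a filter, 3074 with the replicate block, 98 with the 6 libraries alone, 3354 with DESeq2, 3259 without libraries numbered 3 and 692 to 2375 with single libraries left out. In S3 against S0-Low (5932) there were 3834 with the 6 libraries alone and 2998 with at least 10 counts in every library. The 3 earlier steps (0 each) had 53, 327 and 77 without a filter, 57, 417 and 148 with DESeq2 and 23, 57 and 0 with the replicate block. With all 18 libraries S1 against S0-Medium had 125 and S2 against S1 had 2, and with single libraries left out S2 against S1 had 0 to 2. Lin+ against S0-Low (127) had 393 without a filter, 342 with the block, 573 with the 6 libraries, 57 with at least 10 counts, 665 with DESeq2, 198 without libraries numbered 3 and 42 to 69 with single libraries left out. Lin+ against S3 (7501) had 3403 with at least 10 counts.

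Log2 fold changes that were not called changed sign as follows. With library totals Rhbdf1 in S3 against S0-Low was at -0.45 and Snrnp25 in S2 against S1 at -0.037. With the replicate block Rhbdf1 in S3 against S0-Low was at -0.075 and Hba-x in S2 against S1 at 0.56, and the block changed no call beyond those of S3 against S2 given above. For the within-library ratios the pairs gave an exact sign-flip p = 0.25, the smallest possible, with each difference as before (-5.48 for Nprl3, -6.18 for Mpg). Without libraries numbered 3, Il9r was at 0.25 in S3 against S0-Low and -0.012 in Lin+ against S3, Snrnp25 at -0.22 in S0-Medium against S0-Low and -0.12 in Lin+ against S0-Low, Mpg at -0.0048 in S1 against S0-Medium, and Hba-x at 1.21 and Rhbdf1 at 0.80 in S2 against S1. With Hba-a1 alone as the adult gene the alpha-like to beta-like difference was -0.11.

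With single libraries left out, values that were not called also crossed 0. In S3 against S0-Low, Rhbdf1 ran from -2.92 to 0.89 and Il9r from -2.19 to 0.56. In Lin+ against S0-Low, Mpg ran from -0.45 to 0.098 and Snrnp25 from -0.24 to 0.35. In S1 against S0-Medium, Hba-x ran from -0.42 to 4.71, Nprl3 from -0.24 to 0.73, Mpg from -0.25 to 0.51 and Snrnp25 from -0.048 to 0.83. In S2 against S1, Hba-x ran from -1.34 to 2.27, Nprl3 from -0.23 to 1.33, Rhbdf1 from -1.05 to 0.37 and Snrnp25 from -0.14 to 0.62. In S3 against S2, Rhbdf1 ran from -0.97 to 2.85 and Il9r from -0.26 to 2.49, and in Lin+ against S3 Rhbdf1 from -1.88 to 2.08 and Il9r from -0.18 to 2.57.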
